A study of Arabidopsis thaliana with 3 samples.

Results

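The WRKY genes of Arabidopsis thaliana encode a large family of plant transcription factors, and binding of the HA-tagged regulator AtSDR4L next to them was described here. The members were all nuclear protein-coding genes whose symbol or synonym was WRKY followed by a number, which gave 72 of 27444 coding genes. A peak was placed at a gene when its summit lay between 1000 bp outside either gene end and the gene body. The family was taken up with earlier results of these data known, and its peaks were chosen by their place at the genes, so the counts and folds below are a description and no test was made on them.

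Chromatin immunoprecipitation and sequencing (ChIP-seq) was carried out on whole seedlings of an estradiol-inducible AtSDR4L-HA line, harvested 4 days after imbibition. The induced group held 2 biological replicates grown on 1 µM β-estradiol. The control, also precipitated with the HA antibody, was 1 sample of uninduced AtSDR4L-HA seedlings, so all groups carried the transgene and whole seedlings mixed all their cell types. The sources used here give neither the ecotype nor the number of independent transgenic lines. Fold enrichment is the authors' value for each peak over that single control, and with no read counts in the files the depth of the libraries is unknown. The authors called peaks in each induced replicate separately, and their table of matched regions pairs peaks between them and gives each pair an irreproducible discovery rate (IDR), a measure in which low values mark regions found repeatably.

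WRKY proteins bind DNA through the WRKY domain, a conserved peptide stretch followed by a zinc finger, and many of them recognise the W-box element. Group I proteins carry a pair of such domains, group II proteins carry a single one and are split into subgroups a to e by sequence, and group III proteins have a different zinc finger. The family is known for its part in immunity, in senescence, in phosphate and abscisic acid (ABA) responses, and in seed and trichome development. Many members act downstream of MAP kinase cascades, and several regulate other WRKY genes.

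The regions found most repeatably lay at WRKY47, WRKY7 and WRKY63, from 3 different groups of the family. WRKY47, a group IIb gene linked to aluminium tolerance, had a region at chr4:743742-744417 (TAIR10) with a fold of 3.52 in replicate 1 and 2.59 in replicate 2, a mean of 3.06 ± 0.656 (SD, n = 2). WRKY7, a group IId gene whose calmodulin-binding product holds back defence against bacteria, had a region at chr4:12571507-12572200 with folds of 4.82 and 2.30 (mean 3.56 ± 1.79, SD, n = 2). WRKY63, also named ABO3, a group III gene of ABA response and drought tolerance, had a region at chr1:24847580-24848294 with folds of 2.89 and 2.18 (mean 2.53 ± 0.499, SD, n = 2). The summit lay over 500 to 1000 bp outside WRKY47, inside the span of WRKY7 and up to 500 bp outside WRKY63, and no other coding gene shared any of these windows. Replicate 1 was higher than replicate 2 in all 3 regions, and the spread between replicates was widest at WRKY7. The authors' deposited table gave an IDR of 0.0077 at WRKY47, 0.0239 at WRKY7 and 0.0474 at WRKY63, the last close under the limit of 0.05. These were 3 of 72 WRKY genes at an IDR of at most 0.05 (4.17%), beside 0.506% of all coding genes.

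The peak at WRKY7 stood 34th by fold among the 9811 nuclear peaks of replicate 1, and in replicate 2 the peak there stood 448th of 3423. At WRKY47 the ranks were 290th and 249th. WRKY47 thus had the highest fold of the family in replicate 2 and WRKY7 the highest in replicate 1. WRKY7 also had a weaker peak inside its span in replicate 1 alone, with a fold of 1.86, and WRKY47 had 2 more inside its span, with 1.70 and 1.34.

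A further 8 WRKY genes had matched regions of weaker repeatability. WRKY57, a group IIc gene of drought tolerance and leaf senescence, had a region at chr1:26058870-26059642 with folds of 2.92 and 1.82 (mean 2.37 ± 0.775, SD, n = 2). Replicate 1 was again the higher. WRKY27, a group IIe gene that affects bacterial wilt symptoms, had a region at chr5:21412096-21413367 with 3.76 and 1.89 (mean 2.82 ± 1.32, SD, n = 2), and AT5G52840 shared that window. WRKY19, a group I gene whose product fuses an immune receptor to WRKY and kinase domains, had a region at chr4:7201098-7201852 with 2.42 and 1.84 (mean 2.13 ± 0.408, SD, n = 2), shared with AT4G12010. Their IDR in the authors' deposited table was 0.227 (WRKY57), 0.31 (WRKY27) and 0.342 (WRKY19).

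The remaining matched regions had the highest IDR of the authors' deposited table, 0.649, and low folds in most cases. WRKY6, a group IIb gene of senescence and phosphate responses, had 3 of them across and beside its span. The region at chr1:23018496-23019532 had nearly equal folds of 2.23 and 2.22 (mean 2.23 ± 0.00996, SD, n = 2), the smallest spread between replicates at any matched WRKY region. The other two regions at WRKY6 had 2.16 and 1.34 at chr1:23015487-23016791, and 1.51 and 1.40 at chr1:23017141-23017794. One more peak at WRKY6, over 500 to 1000 bp outside the gene, reached 2.85 in replicate 1 and was not overlapped in replicate 2. WRKY6 was the member with the most peaks, 4 in replicate 1 and 3 in replicate 2.

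WRKY39 and WRKY17 belong to group IId like WRKY7. WRKY39, a heat-response gene, had a region at chr3:1268223-1269759 with folds of 2.17 and 1.53, and the summit of the matched region lay nearer to CLPS3 than to WRKY39. WRKY17, which with WRKY11 holds back basal resistance, had a region inside its span at chr2:10437821-10438342 with folds of only 1.24 and 1.27. WRKY52 of group III is better known as RRS1, which forms a paired immune receptor with its neighbour RPS4. Its region at chr5:18325683-18326042 had 1.50 and 1.37, and the summit lay nearer to RPS4. WRKY69 of group IIe had a region inside its span at chr3:21715438-21715767 with 1.53 and 1.44, and WRKY57 had a second region at chr1:26054813-26055477 with 1.40 and 1.61.

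Over all 14 matched regions at 11 WRKY genes, the fold ran from 1.24 to 4.82 in replicate 1 (median 2.20) and from 1.27 to 2.59 in replicate 2 (median 1.72). The medians over all 1784 matched regions were 2.24 and 1.79. The fold of replicate 1 was the higher in 12 of the 14 regions (85.7%), beside 78.1% of all matched regions. Of the 14, 8 (57.1%) had the highest IDR of the authors' deposited table, beside 36.2% of all its regions. The 11 genes were 15.3% of the family, beside 7.09% of all coding genes with a matched region of any IDR. Summits lay inside the gene span at 7 of the regions, up to 500 bp outside at 4 and farther outside at 3.

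**Figure D1:**
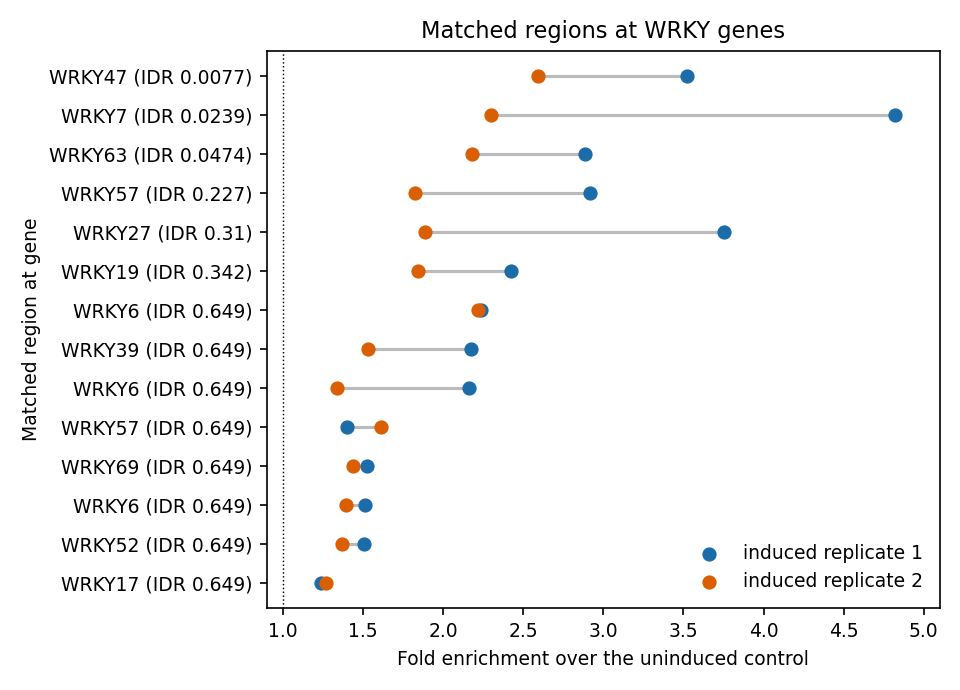
Fold enrichment over the uninduced control (x axis) at each of the 14 matched regions at WRKY genes, ordered by the IDR of the authors' deposited table from the lowest at the top. Each line joins induced replicate 1 and induced replicate 2 of 1 region. The region at WRKY7 reaches 4.82 in replicate 1 and 2.30 in replicate 2, and the 3 regions at WRKY6 share the highest IDR with both low and moderate folds.

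A pair of members just outside the window had regions of low IDR. WRKY22, a group IIe gene of the immune MAP kinase pathway, had a region at chr4:525175-525507 with folds of 3.07 and 2.11 (mean 2.59 ± 0.68, SD, n = 2). WRKY61 of group IIb had one at chr1:6512297-6512835 with 4.34 and 2.43 (mean 3.39 ± 1.35, SD, n = 2). Both summits lay between 1000 and 1200 bp from the gene, and no coding gene had either in its window. The authors' deposited table listed them at an IDR of 0.00114 (WRKY22) and 0.0287 (WRKY61), so the WRKY22 region was more repeatable than any region inside a WRKY window. Among peaks between 800 and 1000 bp outside a member, folds in replicate 1 ran from 1.40 at WRKY62 to 3.96 at WRKY38. Between 1000 and 1200 bp they ran from 1.36 at WRKY21 to 4.34 at WRKY61. The ranges on both sides of the 1000 bp limit overlapped.

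In the list of replicate 1, 45 of the 72 WRKY genes (62.5%) had a peak in their window, beside 36.0% of all coding genes. In the list of replicate 2, 19 (26.4%) had one, beside 13.6% of all coding genes. Peaks in both lists were found at 13 members (18.1%), beside 8.88% of all coding genes. A further 32 members had peaks in replicate 1 only and 6 in replicate 2 only, and 21 had none in either list. All these counts use the full lists, which admit peaks with a q (false discovery rate) of up to 0.1. With a −log10 q of at least 5, 33 members had a peak in replicate 1 and 15 in replicate 2. The shares of all coding genes were then 21.3% and 7.88%. The gene span had a median of 2114 bp for WRKY genes and 2078 bp for all coding genes.

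The share of members with a peak varied between the groups of the family. All 8 group IIb genes and all 3 group IIa genes had a peak in at least 1 list, as did 12 of 14 in group III, 6 of 7 in group IIe and 10 of 14 in group I. In group IIc 8 of 18 had one, and in group IId 3 of 7. Over all coding genes the share with a peak in at least 1 list was 40.7%, close to the shares in groups IIc and IId. At all 3 group IIa genes, WRKY18, WRKY40 and WRKY60, another coding gene lay nearer to the summit. None of them kept a peak when summits were given to the nearest coding gene. That rule also removed WRKY26, WRKY32, WRKY33 and WRKY44 of group I, and WRKY52 and WRKY55 of group III. WRKY16 (TTR1), placed in no group here, was marked by a replicate 1 peak of 1.82-fold. The groups are small, and the difference between them was not tested.

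**Figure D2:**
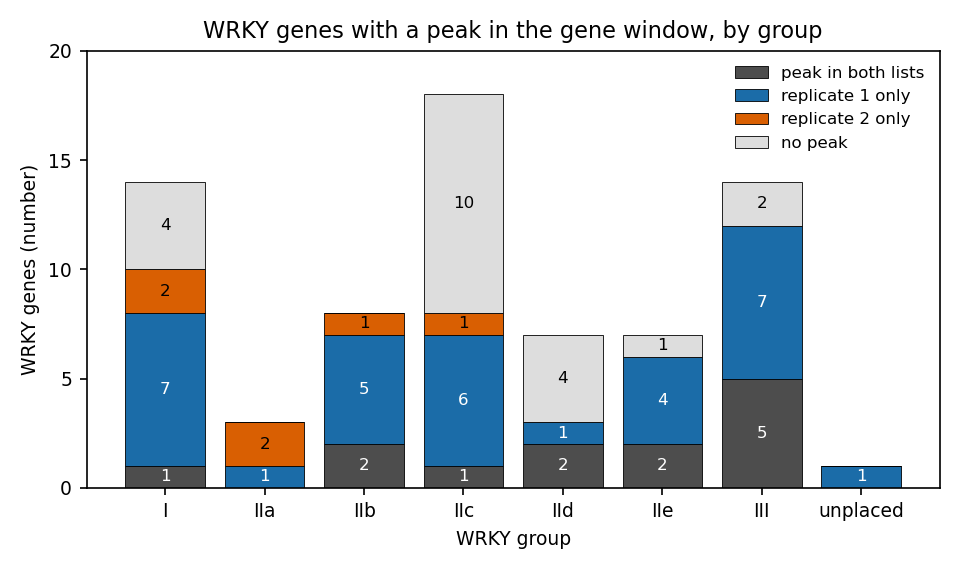
Number of WRKY genes (y axis) by WRKY group (x axis), split by whether a peak lay in the gene window in both lists, in replicate 1 only, in replicate 2 only or in neither. Group IIc holds 10 of the 21 members without a peak, and groups IIa and IIb hold none of them. At every group IIa gene another coding gene lay nearer to the summit.

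At 10 of the 13 members with peaks in both lists the peaks made up a matched region inside the window. The other 3, WRKY38, WRKY46 and WRKY53, all of group III, had peaks at different places in the replicates. Peaks of both lists overlapped at 76.9% of the WRKY genes that had them and at 78.5% of all such coding genes. WRKY38, which with WRKY62 restrains basal defence, had a peak of 3.96 at chr5:7497732-7498173 in replicate 1, behind WRKY7 alone among the WRKY peaks of that list, and one of 2.10 at chr5:7495174-7496734 in replicate 2. WRKY53, a regulator of leaf senescence, had 2.13 at chr4:12394099-12394387 outside the gene in replicate 1 and 2.38 inside its span at chr4:12391988-12393910 in replicate 2. WRKY46, a gene of basal defence and brassinosteroid response, had 1.67 at chr2:19045294-19045820 outside the gene in replicate 1 and 1.73 inside its span at chr2:19043042-19044744 in replicate 2. In all 3 the peak of replicate 2 was the wider and had several summits, while that of replicate 1 had 1. WRKY39 was the reverse case, with a matched region in its window while the summit of the replicate 2 peak lay just beyond 1000 bp.

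The 32 members with peaks in replicate 1 only included folds as high as those of matched regions. The highest was WRKY14 of group IIe, with 3.51 at chr1:10867666-10868861. WRKY3 and WRKY4, related group I genes of resistance to necrotrophic fungi, had 3.12 at chr2:1017894-1018663 and 3.05 at chr1:4775105-4775749, the latter nearer to ELF5A-1. WRKY8, a group IIc gene of salt and virus responses, had 3.10 inside its span at chr5:18802483-18803108, and WRKY75, a group IIc gene of phosphate starvation, had 2.91 at chr5:4151348-4151978. None of these 5 peaks was overlapped by a peak of replicate 2, so each fold comes from a single sample. Beyond them and WRKY39, 26 members had their best fold between 1.40 (WRKY30) and 2.85 (WRKY36), with a median of 1.88.

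Those 26 covered all groups except IId. In group I they were WRKY1, WRKY2, WRKY25, WRKY26 and WRKY32, of which WRKY2 is known from ABA control of germination and had a fold of 1.89. In group IIa the single one was WRKY60, at 2.08, with AT2G24990 nearer to the summit. In group IIb they were WRKY9, WRKY31, WRKY36, WRKY42 and WRKY61, and in group IIc WRKY23, WRKY24, WRKY45 and WRKY51. In group IIe they were WRKY29, WRKY35 and WRKY65, the last with 3 peaks up to 2.75. In group III they were WRKY30, WRKY54, WRKY55, WRKY62, WRKY66, WRKY67 and WRKY70, with the salicylic acid regulators WRKY54 at 2.49 and WRKY70 at 1.86. WRKY16 made up the rest.

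The 6 members with peaks in replicate 2 only were WRKY18, WRKY40, WRKY33, WRKY44, WRKY48 and WRKY72. WRKY18 and WRKY40, which with WRKY60 form group IIa and act in defence and ABA signalling, had folds of 2.26 at chr4:15383260-15385563 and 1.21 at chr1:30385406-30385818. WRKY33, a group I gene needed for camalexin synthesis and resistance to necrotrophs, had 1.28 at chr2:16110861-16111163. WRKY44, known as TTG2 from trichome and seed coat development, had 2.01 at chr2:15647360-15647652, beside the ribosomal protein gene RPS5B. At WRKY18, WRKY33, WRKY40 and WRKY44 another coding gene lay nearer to the summit. WRKY48 of group IIc and WRKY72 of group IIb had 2 peaks each inside their spans, with highest folds of 1.37 and 1.63.

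**Figure D3:**
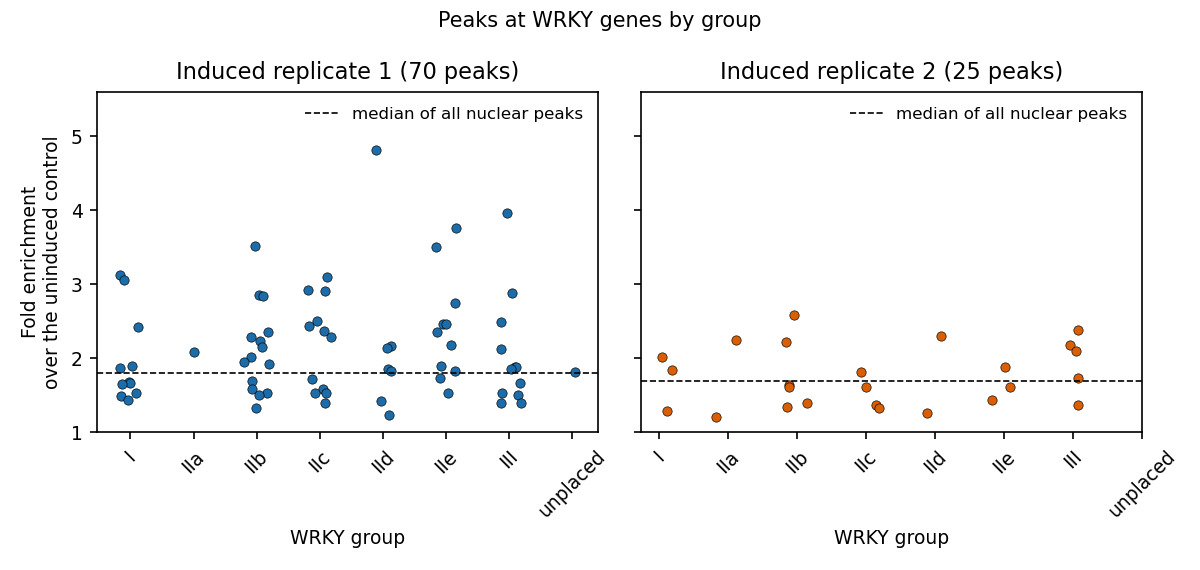
Fold enrichment over the uninduced control (y axis) of every peak at a WRKY gene, by WRKY group (x axis), in induced replicate 1 (left, 70 peaks) and induced replicate 2 (right, 25 peaks). Points are single peaks, spread sideways to be visible, and the dashed line is the median of all nuclear peaks of that list, 1.80 on the left and 1.70 on the right. The highest point on the left is WRKY7 at 4.82, and no WRKY peak on the right exceeds 2.59.

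The peaks at WRKY genes numbered 70 in replicate 1 and 25 in replicate 2, and none was shared by a pair of members. In replicate 1 their median fold was 1.91, beside 1.80 for all nuclear peaks and 1.76 for all peaks in a coding gene window. In replicate 2 it was 1.63, beside 1.70 and 1.67. A fold of at least 2 was reached by 33 of the 70 peaks in replicate 1 and 8 of the 25 in replicate 2, and a fold of at least 3 by 8 and 0. Over all nuclear peaks 35.0% and 24.9% reached 2, and 6.64% and 3.10% reached 3. Of the 70 peaks in replicate 1, 14 were overlapped by a peak of replicate 2, and of the 25 in replicate 2, 13 were overlapped by one of replicate 1. Over all nuclear peaks 18.2% and 53.0% were overlapped, close to the shares at WRKY genes. The overlapped peaks of replicate 1 had a median fold of 2.20 and the others 1.89. In replicate 2 these medians were 1.82 and 1.63.

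Width and position varied as well. Median widths of WRKY peaks were 541 bp in replicate 1 and 429 bp in replicate 2, beside 429 bp and 373 bp for all nuclear peaks. More than 1 summit was present in 25.7% of WRKY peaks in replicate 1 and 40.0% in replicate 2, beside 21.5% and 18.5%. In replicate 1, 37.1% of the summits at WRKY genes lay inside the gene span, 40.0% up to 500 bp outside and 22.9% farther outside, beside 34.2%, 47.3% and 18.5% for all coding genes. Of the 25 summits in replicate 2, 13 lay inside the gene span, 9 up to 500 bp outside and 3 farther outside, beside 45.1%, 38.1% and 16.9% for all coding genes. The gene table used gives no strand, so upstream and downstream ends were not separated. By location, the median fold in replicate 1 was 2.65 for summits over 500 bp outside, 2.01 for those up to 500 bp outside and 1.85 for those inside the gene. In replicate 2 the outside classes had close medians with overlapping ranges, 1.82 for the 3 summits over 500 bp outside and 1.89 for the 9 nearer ones. The median inside the gene was 1.62.

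Some peaks of replicate 2 had a high −log10 q for their fold. The q is the caller's false discovery value for a peak against the control, so −log10 q scores evidence for an excess and not its size. For a given fold, −log10 q grows with the number of reads behind a peak, which the files do not give. The peak at WRKY18 had a −log10 q of 160 at a fold of 2.26, the 26th highest −log10 q of the 3423 nuclear peaks of that list, while 85.9% of the list had a lower fold. Folds were low at WRKY33, with 22.7 at 1.28, and at WRKY40, with 19.3 at 1.21, the lowest fold of any WRKY peak. WRKY53 had 29.4 at 2.38, above the 27.9 of WRKY47 at a higher fold. A fold under 1.5 with a −log10 q of at least 5 was found at 3 of the 25 WRKY peaks of replicate 2, those of WRKY33, WRKY40 and WRKY48, and at 0 of the 70 of replicate 1. Over all nuclear peaks these shares were 5.14% and 1.51%.

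**Figure D4:**
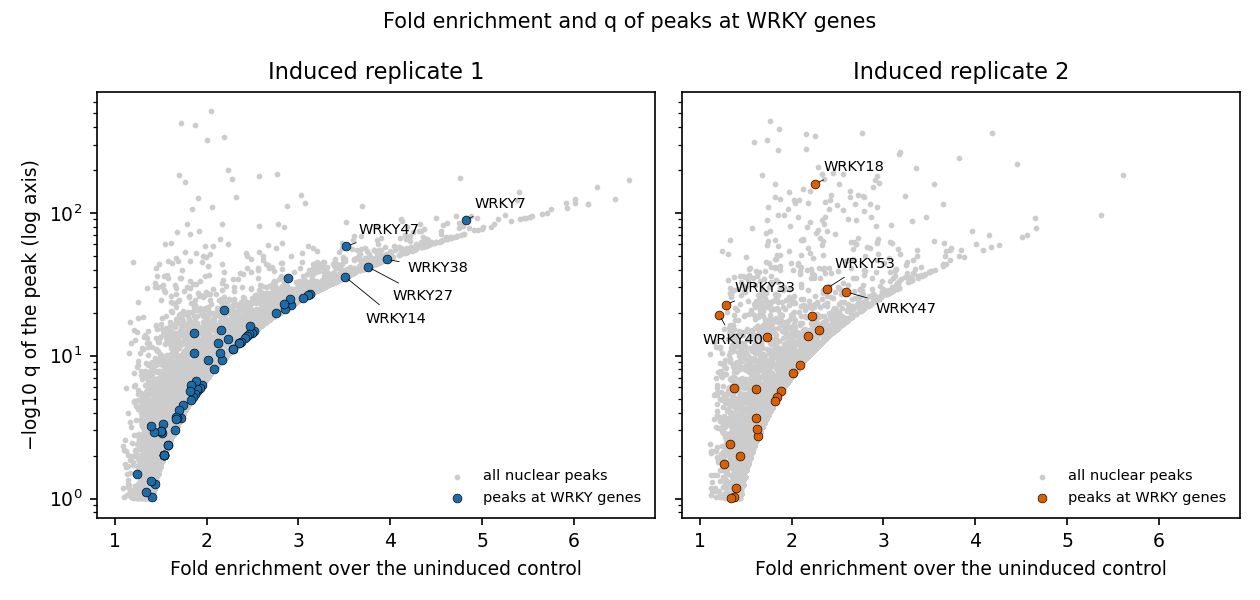
Fold enrichment (x axis) against the −log10 q of each peak (y axis, log scale) in induced replicate 1 (left) and induced replicate 2 (right), with all nuclear peaks in grey and peaks at WRKY genes in colour. WRKY peaks of replicate 1 lie mostly along the lower edge of the cloud, with a peak of WRKY65 (20.8 at a fold of 2.18) among those above it. In replicate 2, WRKY18 (160), WRKY33 (22.7) and WRKY40 (19.3) lie well above the lower edge. Other replicate 2 peaks, such as those of WRKY44 (7.57) and WRKY27 (5.63), do not.

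Of the 21 members without a peak in either list, 10 came from group IIc, the largest group. They were WRKY12 and WRKY13, which act in flowering time, WRKY28, WRKY43, WRKY49, WRKY50, WRKY56, WRKY59, WRKY68 and WRKY71. Group I contributed WRKY10 (MINI3, a regulator of seed size), WRKY20, WRKY34 and WRKY58, and group IId WRKY11, WRKY15, WRKY21 and WRKY74. The others were WRKY22 of group IIe, described above, and WRKY41 and WRKY64 of group III. WRKY41 is known from the control of seed dormancy. A peak list says nothing of signal under its threshold, so these genes are without a listed peak and not shown to be unbound.

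Neighbouring and closely related members differed in their peaks. WRKY63, WRKY64 and WRKY67 lie in 1 cluster on chromosome 1, where WRKY63 had the matched region described above, WRKY67 had a peak of 1.54 in replicate 1 and WRKY64 had none. WRKY54 and WRKY55 lie side by side on chromosome 2, each with a peak of its own in replicate 1, at 2.49 and 1.88, the latter nearer to CTEXP. The closely related WRKY11 and WRKY17 also differed, with no listed peak at WRKY11 and 3 in replicate 1 at WRKY17, up to 2.14.

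Of 27 genes tied to WRKY signalling or defence, 10 had a peak in replicate 1, 8 in replicate 2 and 3 in both. These counts stand beside 36.0%, 13.6% and 8.88% of all coding genes. A matched region was present at 0 of the 27, beside 7.09% of all coding genes, and the difference was not tested. In the MAP kinase cascade, which phosphorylates WRKY proteins, 3 of 8 genes had a peak in replicate 1 and 6 of 8 in replicate 2. The kinase kinases MKK4 (1.41 and 1.90) and MKK5 (1.39 and 1.71) had peaks in both lists. Of 14 salicylic acid and defence genes, 5 had a peak in replicate 1 and 2 in replicate 2, and SARD1, an activator of salicylic acid synthesis, had both (1.74 and 1.48). Among 5 genes of VQ proteins, which bind WRKY domains, 2 had a peak in replicate 1 and 0 in replicate 2.

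Other transcription factor families were matched by the same naming rule, which counts only genes so named. BBX genes had higher shares than WRKY genes in both lists, and NAC, MYB, bZIP and ERF genes had lower ones. In replicate 1 a peak was present at 45.1% of 82 NAC genes, 34.4% of 125 MYB genes, 56.5% of 46 bZIP genes, 32.1% of 28 ERF genes and 71.0% of 31 BBX genes. In replicate 2 the shares were 12.2%, 10.4%, 19.6%, 21.4% and 41.9% in the same order. Over all coding genes the shares were 36.0% in replicate 1 and 13.6% in replicate 2. A matched region was present at 8.54%, 3.20%, 15.2%, 3.57% and 38.7% in that order, beside 15.3% of WRKY genes and 7.09% of all coding genes. A matched region of IDR at most 0.05 was present at 1 NAC, 0 MYB, 0 bZIP, 0 ERF and 4 BBX genes. Beside these stand 3 WRKY genes and 0.506% of all coding genes. Differences from the WRKY shares were not tested.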

How the data were processed

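Peaks of AtSDR4L-HA ChIP-seq were called by the authors with MACS2 2.2.7.1 between each induced sample and the uninduced control, per the series' design text. The submitters' processing notes name bcl2fastq 2.20, Bowtie2 2.3.5.1, SAMtools 1.7 and TAIR10. Each deposited list gives a fold enrichment ratio and −log10 p and q values per peak, but not the control signal at that peak. Some peaks at different genes had the same fold and −log10 q. A peak at each of WRKY23, WRKY24, WRKY36 and WRKY67 had 1.54 and 2.01 in replicate 1. The authors' deposited table gives −log10 IDR per matched region, and the IDR version is not given in the sources used here. Depth is unknown.

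Rows with the same start and end were merged to the summit of highest q, giving 9824 peaks from 12865 rows and 3464 from 4502. Folds of matched regions came from the overlapping peak of highest q in each list. Gene names and neighbours came from a RefSeq table of assembly TAIR10.1, and none of its coordinates are printed. WRKY groups and the list of 27 genes tied to WRKY signalling or defence were written from general knowledge. The planned sequence features were not examined because no sequence was used here. The members and lists were chosen with earlier results of these data known, and no test was made. Members named singly were those with a matched region or with peaks in both lists, and the 5 of highest fold per list among the others. Other members given with a fold were chosen after their values were seen. The placement of summits was checked on simulated positions. Alternatives covered the window, the nearest gene, summits, q, overlap and IDR limits. Python 3.11.15, pandas 2.3.3, numpy 2.4.6 and matplotlib 3.10.9 were used.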

Additional observations from a re-analysis of the deposited data

How the results depend on the processing

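Counts of WRKY genes were recomputed under 37 combinations of a count and a setting, and 29 stayed within 1.5 times the reported count. With 2000 bp outside the gene ends, 5 genes had a region of IDR at most 0.05 in the authors' deposited table, WRKY22 and WRKY61 being added, beside 0.805% of all coding genes. At an IDR of at most 0.01 that table left 1 gene, WRKY47, beside 0.157% of all coding genes. With 500 bp outside the gene ends, 2 genes of IDR at most 0.05 were left, without WRKY47, beside 0.364% of all coding genes. Genes with peaks in both lists numbered 8 with a −log10 q of at least 5 and 6 with a reciprocal overlap of at least 50%, beside 3.82% and 4.26% of all coding genes. WRKY7 was among the genes that the overlap rule removed from that count. Leaving out replicate 1 from that count gave 19 genes and leaving out replicate 2 gave 45, the single-list counts reported above. They stand beside 13.6% and 36.0% of all coding genes. Counting summits with no other coding gene in the window, a setting chosen after seeing the data, gave 10 genes in replicate 2, 8 in both lists and 6 with a matched region (5.43%, 3.37% and 3.09% of all coding genes), while the 3 genes of low IDR stayed (0.292%). With the nearest coding gene 40 members had a peak in replicate 1 and 14 in replicate 2, beside 25.6% and 9.67%. The share of all coding genes also changed under each of these rules, and no difference was tested. No paired analysis was possible because the control has 1 sample and no result comes from a test. Each peak's fold rests on 1 induced sample over the 1 shared control, and unknown depth bars any counting error.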
